A study of Sus scrofa with 180 samples.

Results

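MYH11, NOTCH3, DLL4 and PPP1R12B, 4 genes of the vessel wall and of Notch signalling, were measured in 2 skeletal muscles of 90 pigs. They were chosen by gene symbol, and every probe that the supplementary tables of the study name for 1 of these symbols was taken. This gave 4 probes, 1 for each gene, among 15198 probes on the array and 10987 tested. The tables list probes that the study called different between the muscles on these same arrays, and the copy at hand of the table for SM holds only its first part. The direction of a probe named there is therefore not independent evidence, and other probes of the members may exist.

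The wall of an artery or arteriole is built from an inner sheet of endothelial cells, a basement membrane and layers of smooth muscle cells, while capillaries are wrapped by scattered pericytes. MYH11 encodes the smooth muscle myosin heavy chain, the motor of these cells and their best known marker. PPP1R12B encodes a targeting subunit of myosin phosphatase, the enzyme that removes phosphate from the myosin light chain and so relaxes smooth muscle, and it is also made in heart and skeletal muscle. In Notch signalling a ligand on 1 cell binds a receptor on its neighbour, and the cut receptor moves to the nucleus to switch on genes of the HES and HEY families. DLL4 is a ligand known from endothelial cells, above all in arteries and growing vessels, and NOTCH3 is the receptor known from smooth muscle cells and pericytes.

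The pigs were an intercross over successive generations between 2 terminal sire lines, FH016 of Pietrain type and FH019, a synthetic line with Duroc, Large White and Hampshire founders. All were homozygous wild type at the HAL and RN loci (NN and rn+rn+), came from half-sib families that the labels do not give, and were slaughtered at market weight with no treatment. Longissimus (LM) and Semimembranosus (SM) were cored with a trocar in the superficial part of the muscle, all samples of a muscle by a single operator, and the RNA of each of the 180 samples was read on 1 single-colour (Cy3) array. Whole tissue was used, so fewer cells of a type and less RNA per cell cannot be told apart.

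The sequences matter here because the members fell into 2 kinds by their probes. The first 30 of the 60 bases of the probes of NOTCH3, PPP1R12B and DLL4 are given 5′ to 3′, with the first 15 in capitals, since the number of C in that stretch moved with the signal on these arrays.
NOTCH3: ACTTCACTGCATTCCagatggaacttattc
PPP1R12B: GTCTGCCTCTCTCTCtcatgctcttggatt
DLL4: CCCCCAGACCACTCTtgaagctgatcttca
The probe of MYH11 has 2 C among its first 15 bases and that of NOTCH3 has 6, while that of PPP1R12B has 7 and that of DLL4 has 9. At least as many C as in the probe of DLL4 were found in 0.566% of the probes of the array, at least as many as in that of PPP1R12B in 4.21%, and at least as many as in that of NOTCH3 in 10.0%. GC content over the whole probe ran in the reverse order, being 55.0% for MYH11, 45.0% for NOTCH3, 43.3% for PPP1R12B and 35.0% for DLL4.

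Values are the processed signal of the scanner on the log2 scale after subtraction of the median of each array, so 0 is the middle of the probes kept and a step of 1 is a doubling. Levels of different probes cannot be compared, because probes bind with different strength. The median processed signal of an array lay between 171 and 304 in LM and between 105 and 252 in SM. Slides and scan days hold 1 muscle each (21 slides and 10 days for LM, 14 slides and 5 days for SM), so the muscle and these batches cannot be told apart. Skeletal muscle was checked by ACTA1, MYH1, MB and CKM, whose probes were well above background on all 180 arrays.

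MYH11 was higher in SM. In LM its values ran from -3.83 through a median of -2.69 to -0.55 (87 arrays), and in SM they ran from -2.14 through -0.93 to 0.99 (90 arrays). The groups overlapped, with 24 arrays of SM above the highest of LM and 73 arrays of LM below the lowest of SM. The means were -2.63 ± 0.64 (SD, n = 87) and -0.87 ± 0.60 (SD, n = 90), a log2 fold change of LM over SM of -1.76 (SE 0.0924) and a FC ratio of 3.40 towards SM. The difference passed the moderated test of limma over all probes (adjusted P = 4.46e-44), and within pigs 82 of 87 were higher in SM. The 3 LM spots that are missing were not well above background, so the mean of LM leaves out its dimmest spots. No spot of this probe was marked non-uniform.

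NOTCH3 differed in the same direction by less. Its values ran from -3.47 through -2.49 to -1.84 in LM (89 arrays) and from -3.07 through -1.83 to -1.05 in SM (89 arrays). Of the SM arrays 45 lay above the highest of LM, but only 5 of LM lay below the lowest of SM, because a few SM arrays reached far down. The means were -2.50 ± 0.32 (SD, n = 89) and -1.91 ± 0.38 (SD, n = 89), a log2 fold change of -0.59 (SE 0.0527), a FC ratio of 1.50 towards SM and an adjusted P of 8.96e-22 in limma. It was higher in SM in 79 of 88 pigs, and no spot was non-uniform.

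DLL4 was also higher in SM where its spots passed the quality criteria. Its values ran from 0.06 through 0.97 to 2.68 in LM, where 65 of 90 spots passed, and from 1.34 through 2.44 to 4.49 in SM, where 88 passed. The means were 1.05 ± 0.54 (SD, n = 65) and 2.50 ± 0.62 (SD, n = 88), a log2 fold change of -1.45 (SE 0.0946), a FC ratio of 2.73 towards SM and an adjusted P of 4.67e-32 in limma. Of 63 pigs with both muscles read, 61 were higher in SM. This count leaves out the pigs with a non-uniform LM spot, and those spots had a mean of 3.29, above the SM mean of 2.50. The number of spots lost differed between the muscles, as 25 LM spots (27.8%) were non-uniform against 2 SM spots (2.22%), and 1 LM spot was saturated.

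PPP1R12B had the largest difference of the members with the muscle alone in the model, though not with the index of C-rich probes described further on, where MYH11 had it. Its values ran from -1.71 through -0.47 to 2.81 in LM (67 arrays) and from 0.38 through 2.12 to 4.05 in SM (69 arrays). The groups overlapped, with 19 arrays of SM above the highest of LM and 55 arrays of LM below the lowest of SM. There were 2 LM arrays above the median of SM and no SM array below the median of LM. These counts leave out the non-uniform LM spots, whose mean was 2.51. The means were -0.28 ± 0.84 (SD, n = 67) and 2.21 ± 0.92 (SD, n = 69), a log2 fold change of -2.49 (SE 0.149), a FC ratio of 5.62 towards SM and an adjusted P of 3.39e-34 in limma. It was higher in SM in 49 of 51 pigs, a count that leaves out pigs with a non-uniform spot in either muscle. Non-uniform spots were 23 in LM (25.6%) and 21 in SM (23.3%).

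**Figure D1:**
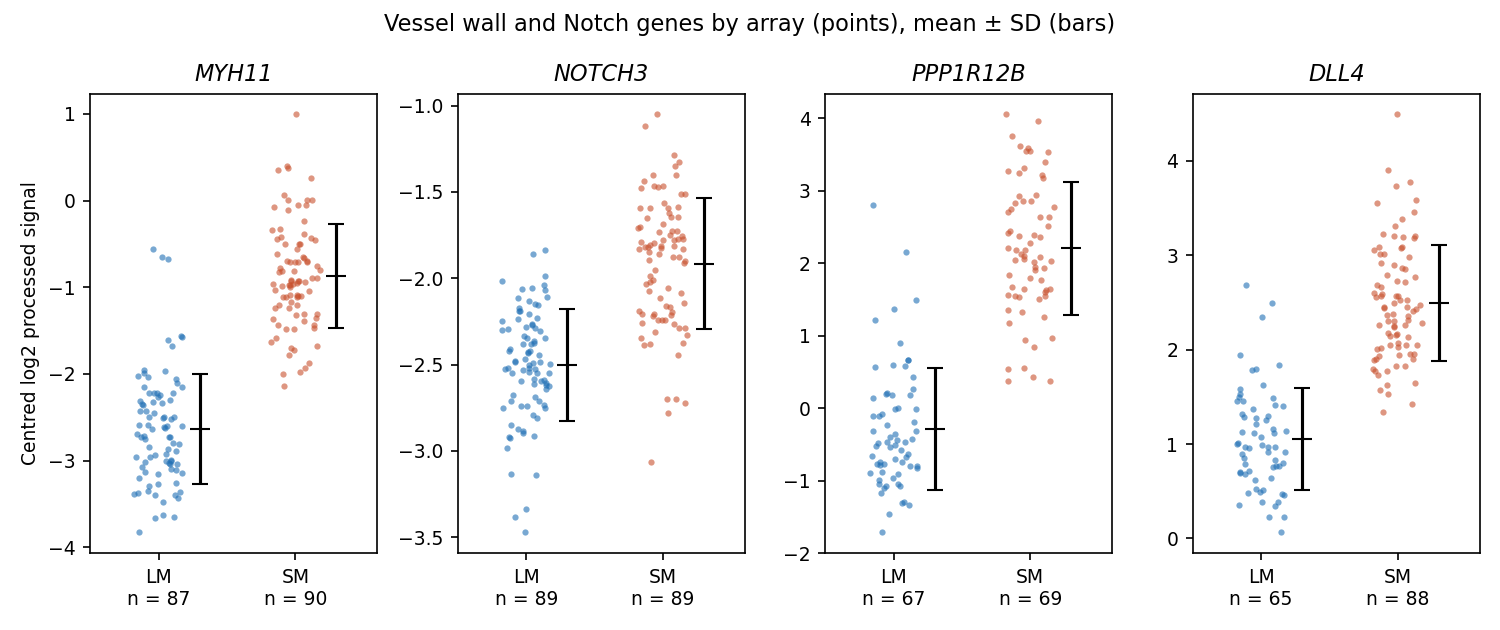
Centred log2 processed signal of MYH11, NOTCH3, PPP1R12B and DLL4, 1 point for each array that passed, with LM in blue and SM in orange and the mean ± SD at the right of each group. The means of SM lie above those of LM in each panel, by 0.59 for NOTCH3 up to 2.49 for PPP1R12B, and the vertical scales differ between panels.

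All 4 members were thus called higher in SM, as were 47.7% of all probes tested, while 35.7% were called higher in LM and 83.5% in either direction. A call towards SM is therefore common on these arrays. Ranked from the most negative log2 fold change among the 10987 probes, PPP1R12B was number 3, MYH11 number 22, DLL4 number 53 and NOTCH3 number 1205. With the index of C-rich probes in the model the places were 323 for PPP1R12B, 6 for MYH11, 5923 for DLL4 and 1049 for NOTCH3. The median log2 fold change was -0.07 over all probes and -0.27 over the 3967 probes with a symbol in the tables.

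Non-uniform spots, where the scanner software found the brightness uneven within the spot, set DLL4 and PPP1R12B apart. Over all probes the mean share of such spots was 0.656% in LM and 0.180% in SM, and 87.1% of probes had none in LM. The share rose with C at the start of the probe, from 0.284% in LM for probes with 0 to 2 C to 11.8% for probes with 8 or more. The spots lost were not a random sample of the values. Read all the same, the 25 non-uniform LM spots of DLL4 had a mean of 3.29 ± 2.22 (SD), above the 1.05 of the spots that passed, and the 23 of PPP1R12B had a mean of 2.51 ± 2.27 against -0.28. In SM the 21 non-uniform spots of PPP1R12B averaged 2.43 ± 0.77, close to the 2.21 of the spots that passed. With failed spots kept but values over 3 SD from the probe mean still removed, the log2 fold changes were -1.09 for DLL4 and -2.01 for PPP1R12B. That setting read 87 LM arrays for DLL4 and 88 for PPP1R12B. The non-uniform LM spots reached up to 9.06 for DLL4 and 8.70 for PPP1R12B, and a fit with every failed spot kept was not run.

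The same stretch of the probe went with the muscle difference. Among all tested probes the median log2 fold change was -0.004 for those with 0 to 2 C, -0.20 for those with 6, -0.33 for those with 7 and -0.67 for those with 8 or more, and 88.4% of the last were called higher in SM. For each array an index was formed as the mean of 214 probes with 8 or more C minus the mean of 3954 probes with 2 or fewer, on values centred on each probe and with the members left out. It thus holds every tested probe with 8 or more C except that of DLL4, also those of the gene lists below. For these probes a loss of the muscle difference with the index in the model was, on average, built in. The index averaged -0.37 ± 0.33 (SD, n = 90) over the LM arrays and 0.38 ± 0.30 (SD, n = 90) over the SM arrays, with ranges from -1.13 to 0.36 and from -0.32 to 1.14. The ranges overlapped, which allowed the muscle and the index to be fitted together, but the index itself differed between the muscles, so the model can assign to it a difference that the muscles carry. Whether the index is a property of the RNA, the labelling or the hybridization was not tested.

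**Figure D2:**
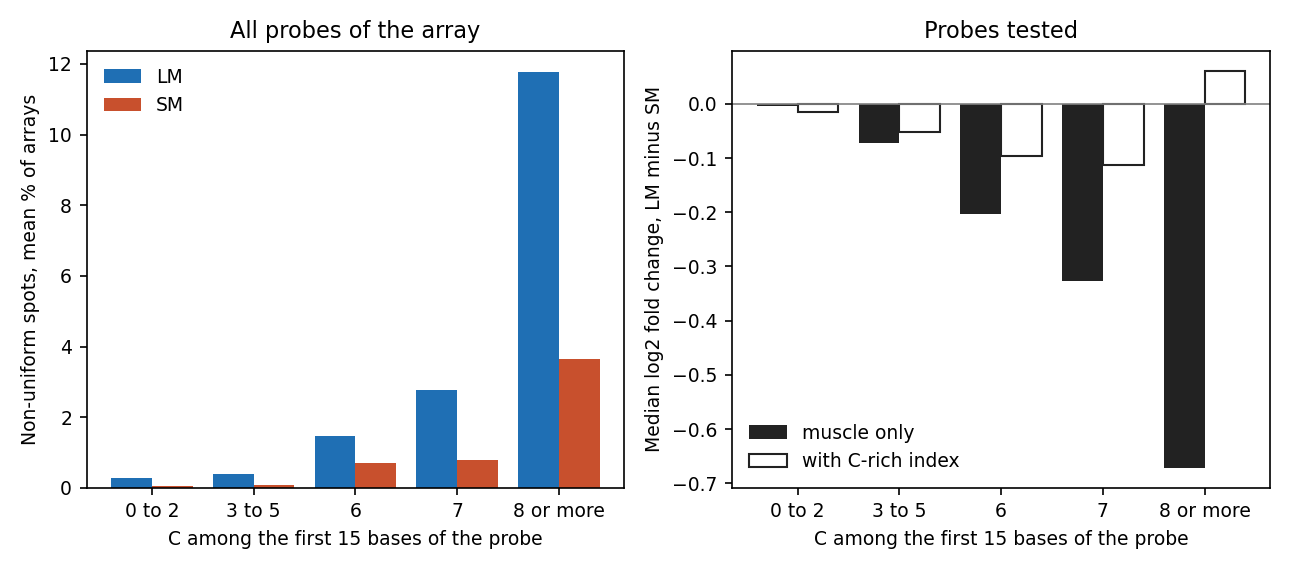
Left, mean share of arrays with a non-uniform spot (%) by the number of C among the first 15 bases, for all probes, with LM in blue and SM in orange. Right, median log2 fold change, LM minus SM, of the probes tested, with the muscle alone (filled) and with the C-rich index of the array in the model (open). For probes with 8 or more C the share reached 11.8% in LM and 3.65% in SM, and the median went from -0.67 to 0.06 once the index was in the model. All of these tested probes except that of DLL4 form the index, so this last change was built in.

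Within each muscle the values of DLL4 and PPP1R12B moved with this index. For DLL4 Pearson r was 0.75 in LM (rho 0.69, n = 65) and 0.89 in SM (rho 0.88, n = 88). For PPP1R12B it was 0.61 in LM (rho 0.57, n = 67) and 0.74 in SM (rho 0.68, n = 69). Each of these 4 relations had a permutation P of 1e-05 for r and for rho, the smallest that 100000 permutations can give, and an adjusted P of 2e-05 for r over the 8 relations of member, muscle and index. Without the 2 arrays farthest from the median index they were 0.68, 0.88, 0.56 and 0.71 in the same order, and on values centred on slide means they were 0.84, 0.89, 0.74 and 0.75.

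MYH11 and NOTCH3 showed no such relation that passed the test. For MYH11 r was -0.20 in LM (rho -0.19, P = 0.0652 for r and 0.0803 for rho, adjusted P = 0.104) and -0.02 in SM (rho -0.02, P = 0.844 and 0.88, adjusted P = 0.964). For NOTCH3 r was 0.03 in LM (rho 0.04, P = 0.794 and 0.699, adjusted P = 0.964) and 0.0004 in SM (rho -0.02, P = 0.997 and 0.847, adjusted P = 0.997). Without the 2 farthest arrays these stayed within -0.21 and 0.04, and on slide-centred values within -0.03 and 0.15.

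With the index in the limma model, the muscle difference of DLL4 was no longer seen. Its log2 fold change was -0.0011, with a 95% interval from -0.19 to 0.18 and an adjusted P of 0.992. That of PPP1R12B went from -2.49 to -0.86 (interval -1.23 to -0.49, adjusted P = 1.81e-05) and was still called. That of MYH11 was -1.93 (interval -2.21 to -1.65, adjusted P = 2.69e-28) and that of NOTCH3 was -0.58 (interval -0.74 to -0.42, adjusted P = 1.08e-10). The differences of the vascular myosin and of the receptor thus had about the same size with and without the index, and those of the ligand and of the phosphatase subunit did not. As background for these calls, this model called SM higher for 40.7% of all probes and LM for 33.4%.

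**Figure D3:**
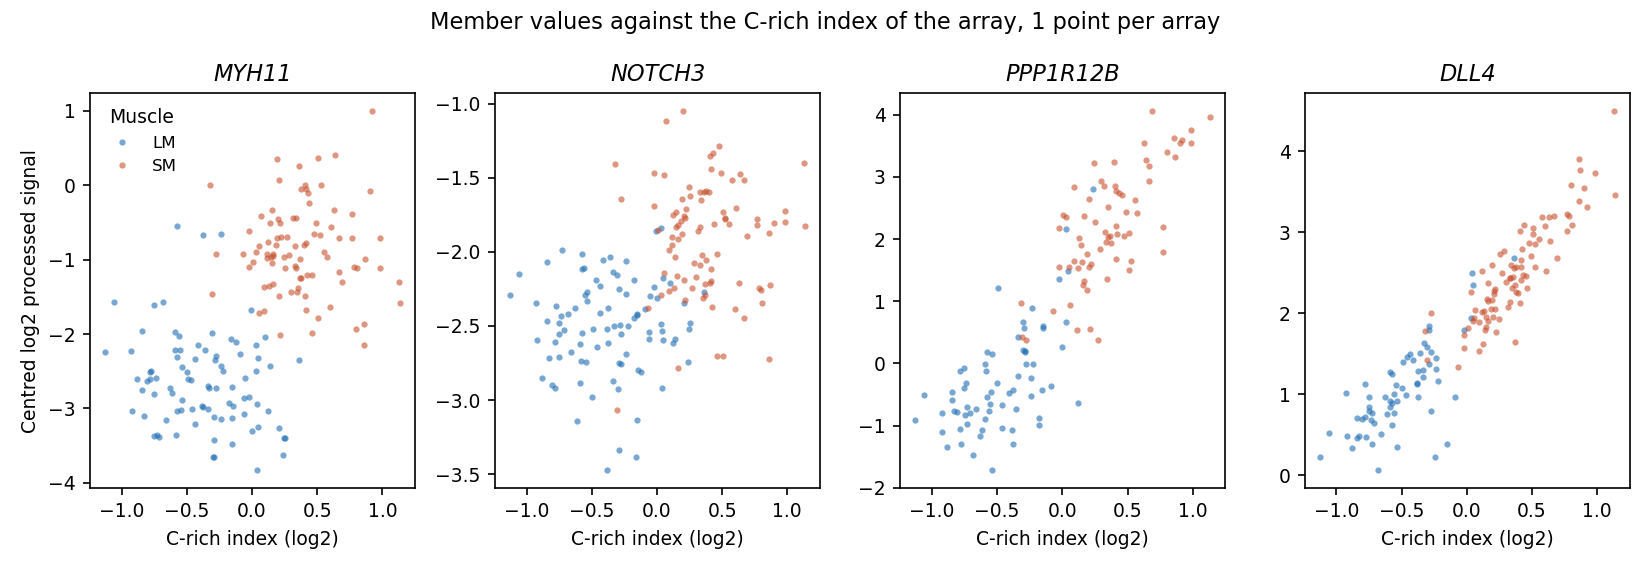
Centred log2 processed signal of each member against the C-rich index of the array (log2), 1 point per array, with LM in blue and SM in orange. Points of both muscles lie along 1 slope for DLL4 (r = 0.75 in LM and 0.89 in SM) and climb together for PPP1R12B, whereas for MYH11 and NOTCH3 the muscles form separate clouds with r between -0.20 and 0.03.

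Whether pigs with a high value of 1 member had a high value of another was asked within each muscle, which does not rest on the difference between the muscles. The 6 pairs of members in 2 muscles made 12 relations, and P values were adjusted over them. MYH11, the smooth muscle myosin, and NOTCH3, the receptor known from smooth muscle cells and pericytes, rose and fell together. Whether a shared cell type underlies this was not tested. In SM r was 0.58 (rho 0.60, n = 89 pigs), with a permutation P of 1e-05 for both, the smallest possible, and an adjusted P of 4e-05 for r. In LM r was 0.36 (rho 0.39, n = 87 pigs), with P = 0.0007 for r and 0.00024 for rho and an adjusted P of 0.0021 for r. Without the 2 pigs farthest from the median of MYH11, r was 0.57 in SM and 0.30 in LM.

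The relation of MYH11 and NOTCH3 was also present inside batches and apart from the index. On values centred on slide means r was 0.60 in SM (n = 87, adjusted P = 4e-05) and 0.30 in LM (n = 82, adjusted P = 0.0161). With the index removed from both genes it was 0.58 in SM and 0.37 in LM. With normexp background correction r in LM was 0.61, the highest of the settings tried. Both probes are dim in LM, with median processed signals of 79.4 for MYH11 and 90.9 for NOTCH3, and r there varied with the background method. The difference between the r of the 2 muscles was not tested.

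DLL4 and PPP1R12B were correlated too, with r = 0.68 in LM (rho 0.58, n = 57 pigs) and r = 0.59 in SM (rho 0.54, n = 67 pigs). Permutation P was 1e-05 for r in both and for rho in SM, and 2e-05 for rho in LM, and the adjusted P was 4e-05 for r in both muscles. Without the 2 farthest pigs r was 0.58 in LM and 0.56 in SM, and on slide-centred values it was 0.67 and 0.69. With the index removed from both genes, r was 0.48 in LM (adjusted P = 0.00054) and -0.19 in SM (adjusted P = 0.381). In SM the correlation of these probes was therefore not seen apart from the index.

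**Figure D4:**
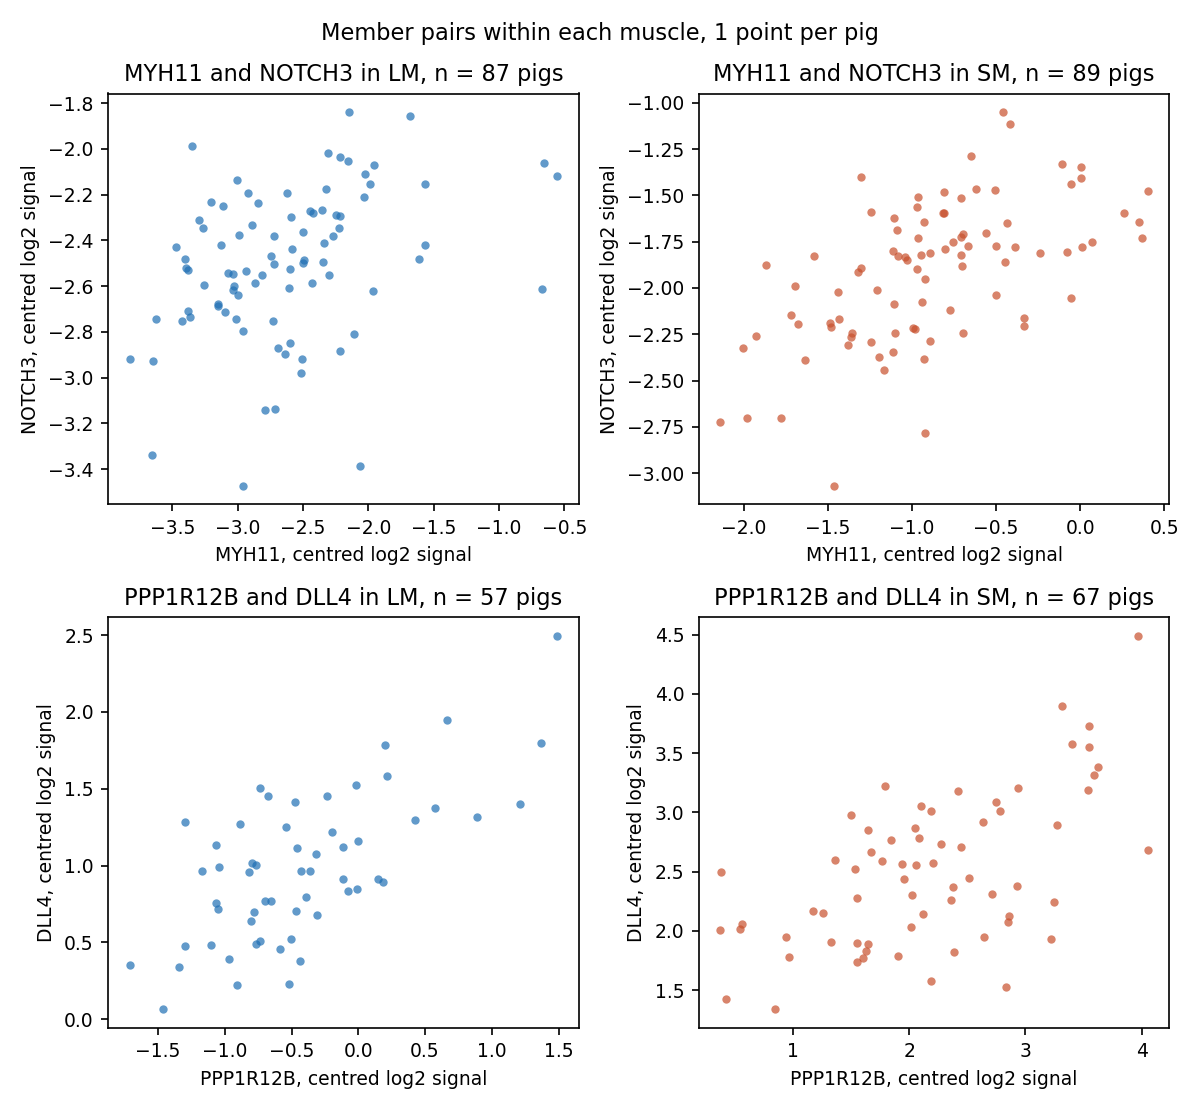
Centred log2 processed signal of NOTCH3 against MYH11 (top) and of DLL4 against PPP1R12B (bottom), 1 point per pig, with LM at the left in blue and SM at the right in orange. Pearson r was 0.36 and 0.58 in the upper panels and 0.68 and 0.59 in the lower panels, each before the index was removed.

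The other 4 pairs, each of which joins MYH11 or NOTCH3 to PPP1R12B or DLL4, had r between -0.14 and 0.13 over both muscles, with adjusted P from 0.588 to 0.864. DLL4 and NOTCH3, ligand and receptor, had r = 0.11 in LM (rho 0.17, n = 64, P = 0.367 and 0.175) and r = -0.03 in SM (rho -0.05, n = 87, P = 0.797 and 0.632). MYH11 and PPP1R12B, the motor and the phosphatase subunit, had r = -0.14 in LM (rho -0.08, n = 64, P = 0.252 and 0.549) and r = 0.03 in SM (rho -0.03, n = 69, P = 0.809 and 0.82). None of these 8 relations passed the permutation test at an unadjusted P of 0.05.

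No correlation of a member between the muscles of the same pig passed the test. Over pigs r between the muscles was 0.06 for MYH11 (rho 0.07, n = 87, P = 0.566 and 0.546), 0.05 for NOTCH3 (rho 0.004, n = 88, P = 0.668 and 0.97), -0.07 for DLL4 (rho -0.02, n = 63, P = 0.561 and 0.887) and -0.05 for PPP1R12B (rho -0.05, n = 51, P = 0.748 and 0.713). The adjusted P was 0.748 for r in all 4 permutation tests. Without the 2 farthest pigs r lay between -0.07 and 0.08. On slide-centred values PPP1R12B had r = -0.35 (n = 37, adjusted P = 0.139) and the other 3 lay between -0.01 and 0.07.

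Part of the spread within a muscle lay between slides. Only slides with 3 or more values of a probe were counted. Of the 21 LM slides these were 18 for MYH11 and NOTCH3, 14 for DLL4 and 13 for PPP1R12B. In LM the share of the variance between them was 27.2% for MYH11, 38.1% for NOTCH3, 44.9% for PPP1R12B and 46.8% for DLL4. In SM it was 16.2% for MYH11, 19.3% for NOTCH3, 41.3% for PPP1R12B and 31.8% for DLL4. Slide means of MYH11 ran from -3.45 to -2.05 in LM and from -1.26 to -0.51 in SM and did not overlap. Slide means of NOTCH3 ran from -2.94 to -2.19 in LM and from -2.27 to -1.65 in SM and overlapped slightly. Those of DLL4 ran from 0.64 to 1.84 in LM against 2.03 to 3.16 in SM. Those of PPP1R12B ran from -1.10 to 0.60 against 1.32 to 3.25. Neither overlapped among the slides counted, but LM slides that had lost most spots were left out. The highest LM value of PPP1R12B, 2.81, lay on such a slide.

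The probes most like each member, by the lower of their r within LM and within SM among named probes, differed in kind. For MYH11 the closest was KCNMB1, the beta subunit of the calcium-activated potassium channel of smooth muscle, with r = 0.88 over 87 pigs in LM and 0.85 over 90 pigs in SM. RPLP0, a ribosomal protein gene (0.64 and 0.67), COL18A1, a collagen of vascular basement membranes (0.51 and 0.60), CCDC3 (0.45 and 0.69) and TAGLN, the smooth muscle actin-binding protein transgelin (0.44 and 0.47), followed. Their probes have 3 to 5 C and no non-uniform spot in LM. For NOTCH3 they were 2 probes of PGM5 (0.58 and 0.63, and 0.55 and 0.64), FSCN1, which bundles actin (0.58 and 0.66), CBX6, a Polycomb protein (0.58 and 0.61), and C1ORF183 (0.56 and 0.68), again with no non-uniform spot in LM and 2 to 6 C.

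For PPP1R12B the closest were C9ORF91 (r = 0.89 in LM and 0.94 in SM), the nuclear receptor NR2C2 (0.86 and 0.87), the peptide transporter SLC15A1 (0.83 and 0.86), the cell cycle inhibitor CDKN1B (0.83 and 0.82) and ARL6IP5 (0.81 and 0.81). For DLL4 they were C9ORF6 (0.86 and 0.89), the histone gene HIST1H2AB (0.86 and 0.87), the ubiquitin ligase WWP2 (0.86 and 0.89), the non-muscle myosin MYH9 (0.84 and 0.94) and CPNE2 (0.84 and 0.85). Each of these 10 probes had non-uniform spots in LM, in 8.89% to 40.0% of arrays, and they have 5 to 10 C. These r are descriptions over arrays that share slides and depth. The median r of DLL4 with the other probes of 8 or more C was 0.48 in LM and 0.60 in SM, against -0.03 and 0.02 with all other probes. For PPP1R12B these medians were 0.40 and 0.51 against -0.03 and 0.02, whereas for MYH11 they were -0.10 and -0.01 and for NOTCH3 0.03 and -0.02.

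Among genes of the smooth muscle contractile apparatus, SM was called the higher muscle for 16 of 19 tested probes and LM for 3, and the median log2 fold change was -0.67. The lists hold only probes named in the tables, and of all 3967 such probes 50.4% were called higher in SM and 47.6% in LM, with a median of -0.27, or 42.8% and 43.6% with a median of 0.06 once the index was in the model. The counts of every list below stand against these shares. The list held 28 genes, of which 16 have a named probe. Besides MYH11 they included KCNMB1 (-1.70), MYL9, the regulatory light chain of smooth muscle myosin (-1.49), TAGLN (-0.93), and the calponins CNN2 (-0.88), CNN1 (-0.78 and -0.67 for its 2 probes) and CNN3 (-0.74). SYNPO2, an actin-binding protein (-0.84), and the smoothelin gene SMTN (-0.47 and -0.39) were also higher in SM, as was ACTA2 (-0.47 and -0.48), though actin genes are near-identical copies and its probes may read other actins. Higher in LM were PLN, phospholamban, which skeletal muscle also makes (0.92), the filamin gene FLNA (0.61) and the light chain gene MYL12B (0.18). FLNA was read on only 77 LM and 51 SM arrays. With the index in the model SM was called higher for 15 and LM for 2. Those 2 were PLN (0.53) and MYH9, whose probe has 5 C and 14 non-uniform LM spots and went from -1.54 to 0.21. FLNA (0.28, adjusted P = 0.29 in limma) and MYL12B (0.05, adjusted P = 0.53) were then no longer called, nor were they without the index under 1 other setting each, FLNA with normexp and MYL12B with no filter on dim probes.

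The median r of MYH11 with the other 18 probes of the smooth muscle list was 0.18 in LM and 0.29 in SM, and 15 were positive in each muscle. That of NOTCH3 with the 19 probes was 0.22 in LM and 0.25 in SM, against 0.004 and -0.02 with all probes. DLL4 had a median of -0.03 and 0.03 with the same 19, and PPP1R12B of -0.08 and 0.19 with 18.

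The genes around PPP1R12B went in different directions. Of 7 tested probes of myosin phosphatase and its control, SM was higher for 3 and LM for 4, and the median was 0.37. PPP1R12A, the sister targeting subunit, was higher in LM by 0.54 (adjusted P = 1.64e-30 in limma), and only 8 of 89 pigs were higher in SM. ROCK1, the kinase that inhibits the phosphatase, was higher in LM by 0.88, and RHOA, the GTPase that activates this kinase, was higher in SM by 0.60 on the log2 scale. PRKG1, the cyclic GMP-dependent kinase that relaxes smooth muscle, was higher in LM by 0.94, and the calmodulin gene CALM3 by 0.37. PRKCA had -0.95 without the index and 0.33 with it, and its probe has 9 C.

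In the Notch pathway SM was called the higher muscle for 10 of 15 tested probes and LM for 5, and the median was -0.36. With the index SM was higher for 5 and LM for 6, and the median was 0.05. The list held 48 genes, of which 15 have a named probe. Among the receptors, NOTCH4, known from endothelium, was higher in LM by 0.19 (adjusted P = 0.0149 in limma), although its spots passed on only 81 LM and 52 SM arrays. This call was lost under 5 of 12 alternatives, which were quantile normalization, normexp, no filter on dim probes, the scan day as a random block, and the pig as a block with the index, and without the index its log2 fold change ran from -0.02 to 0.42. Of the ligands, DLL3 had -0.26 without the index and 0.05 with it. Of the genes that process or modify receptors and ligands, MFNG, a fringe sugar transferase that alters receptor binding, was higher in SM (-0.72, and -0.78 with the index), APH1A, a part of gamma-secretase, was also higher in SM (-0.44 and -0.28), RFNG changed from -0.63 to 0.13, and the ligand-activating ubiquitin ligase MIB1 was higher in LM (0.55 and 0.39).

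The target genes HEY1 and HEY2 were both higher in SM. For HEY1 the LM arrays averaged -0.44 ± 0.29 (SD, n = 89) and the SM arrays -0.08 ± 0.28 (SD, n = 90). Its log2 fold change was -0.36 (adjusted P = 2.55e-14 in limma) and -0.48 with the index, and 74 of 89 pigs were higher in SM. HEY2 had a log2 fold change of -0.42 (adjusted P = 8.16e-11), was higher in SM in 71 of 90 pigs and had -0.22 with the index (adjusted P = 0.0218). Among nuclear partners, CIR1, a corepressor that binds RBPJ, was higher in LM by 1.46, with 0 of 90 pigs higher in SM, HDAC2 by 0.63 and KAT2B by 0.51, whereas NCOR1 went from -0.97 to 1.09 and CTBP2 from -0.35 to 0.02 with the index. The probe of NCOR1 has only 1 C, yet 19 of its LM spots were non-uniform and its value moved with the index. The median r of NOTCH3 with HEY1 and HEY2 was 0.15 in LM and 0.14 in SM, and that of DLL4 with them was -0.09 and 0.05.

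**Figure D5:**
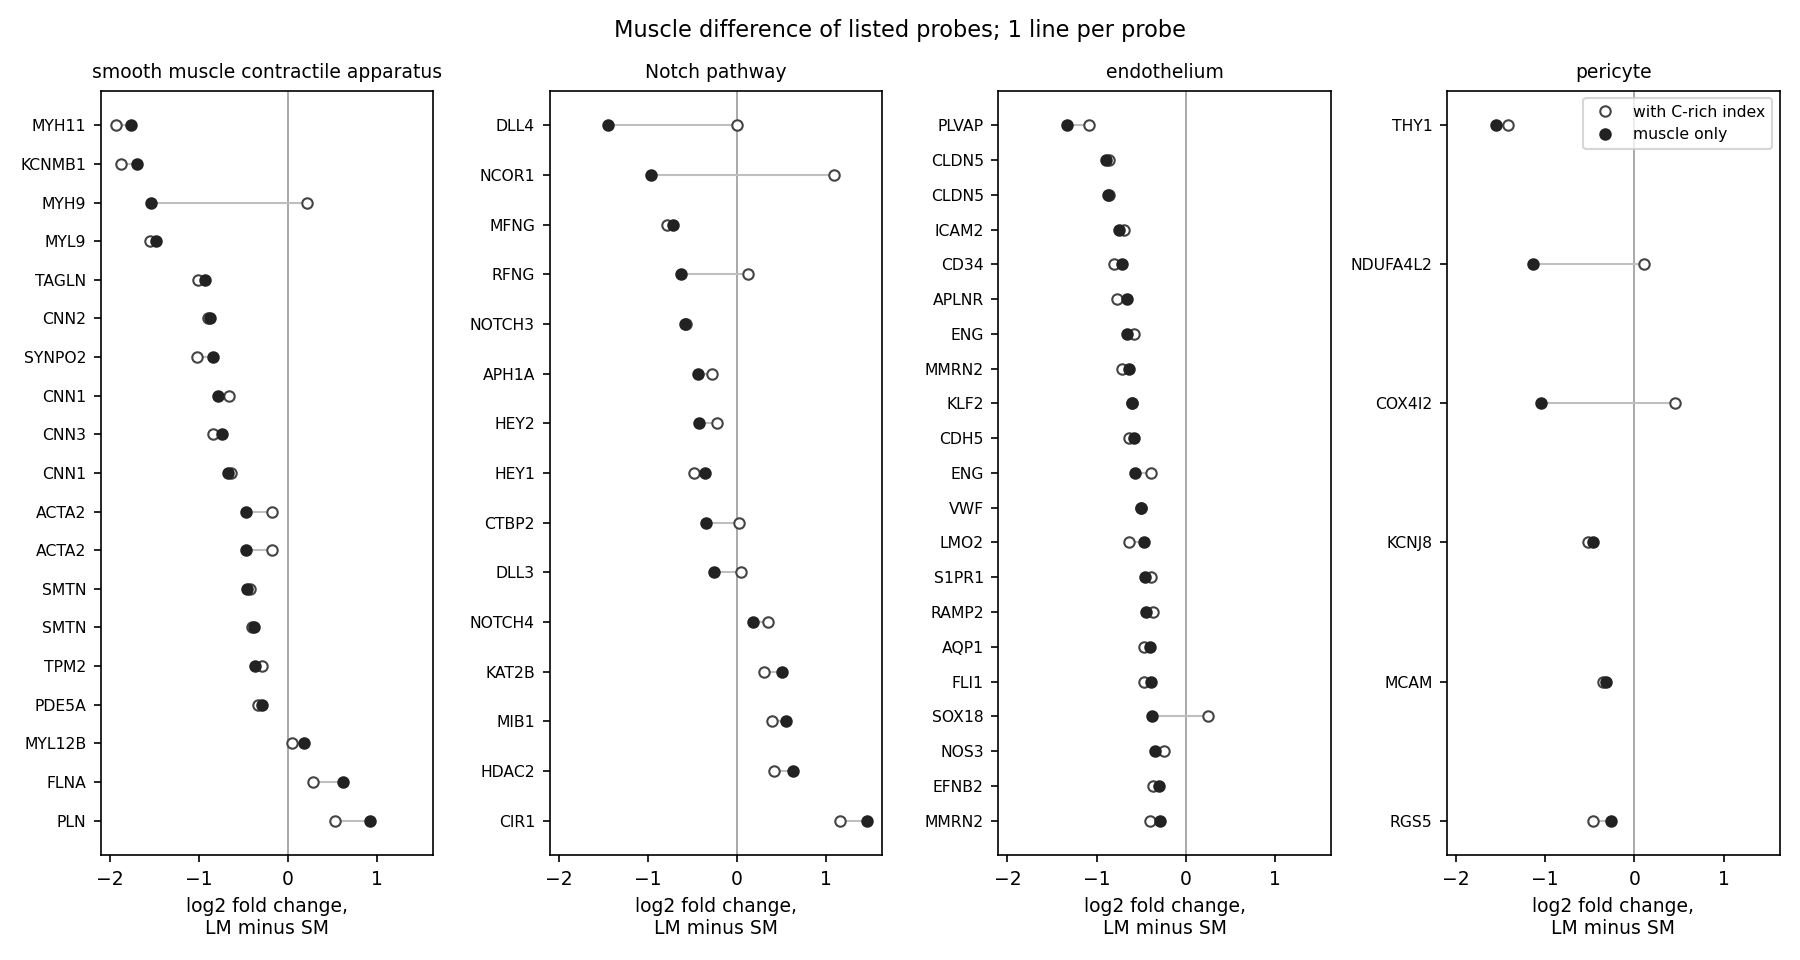
Log2 fold change, LM minus SM, of each tested probe of 4 gene lists, with the muscle alone in the model (filled) and with the C-rich index added (open), and a grey line between them. Values left of 0 are higher in SM, DLL4, NCOR1, RFNG, MYH9, COX4I2 and NDUFA4L2 have long lines, and MYH11, NOTCH3, MYL9, TAGLN and PLVAP stay at least 0.5 left of 0 in both.

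Markers of the cells next to smooth muscle moved the same way as MYH11 and NOTCH3, and their part in these differences was not tested. All 21 endothelial probes, from 18 of 28 listed genes, were called higher in SM, with a median of -0.57, and 20 with the index, with a median of -0.58. Among them were PLVAP, the diaphragm protein of fenestrated and venous endothelium (-1.33), the tight junction gene CLDN5 (-0.90 and -0.87), ICAM2 (-0.75, higher in SM in 90 of 90 pigs), the cadherin CDH5 (-0.58), VWF (-0.50) and EFNB2, an arterial marker (-0.30). SOX18, with 7 C, had -0.37 without the index and 0.25 with it. The mean of the endothelial probes, each centred on its own mean, lay between -0.67 and -0.003 in LM and between -0.30 and 1.05 in SM.

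All 6 pericyte probes were called higher in SM without the index and 4 with it. THY1 (-1.55), KCNJ8 (-0.47), MCAM (-0.32) and RGS5 (-0.26) had the same direction with the index. MCAM was read on only 46 LM and 60 SM arrays, and KCNJ8 on 60 and 74. MCAM was not called when values over 3 SD were kept, nor with the pig as a block together with the index. NDUFA4L2 and COX4I2, each with 8 C and so part of the index, went from -1.14 to 0.10 and from -1.05 to 0.45. All 13 probes of basement membrane and connective tissue were higher in SM, with a median of -0.96, among them TNC (-2.29), FN1 (-1.21 and -1.20), COL4A2 (-1.09 and -0.83), COL4A1 (-0.97 and -0.65) and HSPG2 (-0.65). With the index SM was called higher for 12 of them, with a median of -0.85, and LM for 1, the fibulin gene FBLN1, whose probe has 7 C and which went from -1.18 to 0.60. The median r of NOTCH3 with these 13 was 0.32 in LM and 0.55 in SM, that of MYH11 was 0.18 and 0.37, and that of DLL4 was 0.05 and -0.15. The mean of the pericyte probes lay between -0.99 and 0.79 in LM and between -0.22 and 1.06 in SM, and that of the connective tissue probes between -1.27 and 0.25 and between -0.50 and 1.69.

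Adipocyte markers were higher in SM in 5 of 5 probes (median -1.23), with ADIPOQ at -1.26, and their median r with MYH11 was 0.26 in LM and 0.50 in SM. With NOTCH3 it was 0.06 in LM and 0.54 in SM. Of the leukocyte markers 3 of 4 were higher in SM (median -0.71), led by SPI1, whose probe has 10 C and 41 non-uniform spots in LM and which went from -3.02 to -0.31 with the index. The 3 probes of HBA2, the alpha globin of red cells, had -1.28, -1.12 and -0.46, and 1 was still called with the index. Of the fibre markers, 3 of 4 slow and 2 of 3 fast probes were higher in SM. The leukocyte and fibre lists hold too few probes to set against the 50.4% of named probes.

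The probes of the smooth muscle, myosin phosphatase, Notch, endothelial and pericyte lists were also split by their C count. The 9 probes with 7 or more C all had lower means in LM, with a median log2 fold change of -1.05 that became 0.10 with the index, and 5 changed sign. PRKCA, RFNG, PLVAP, NDUFA4L2 and COX4I2 among them are themselves part of the index, so the change with the index was partly built in. DLL4 and PPP1R12B, described above, are also among them. That leaves SOX18 (-0.37, and 0.25 with the index) and the CLDN5 probe with 7 C (-0.90 and -0.86), so this split is not separate evidence. The 59 probes with 6 or fewer C had a median of -0.47 and of -0.40 with the index, and 4 changed sign, among them NCOR1 with 1 C and MYH9 with 5 C. The number of C thus did not mark every probe whose difference moved with the index.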

How the data were processed

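Spots were read by the authors with Agilent Feature Extraction (version 9.5.3.1, and 9.5.1.1 for 44 LM arrays). The deposited scanner output gives each spot an intensity, the processed signal, on a linear scale, from which background and spatial trends had been taken out but which was not yet normalized across arrays. A deposited table of 6903 probes, used as an alternative, holds the natural log of that intensity minus 1 constant per array, as the authors made it. Spots not well above background, non-uniform or saturated were set to missing. Probes with over 50% failed spots in either muscle were left out, log2 values were centred on the median of the array over the probes kept, and values over 3 SD from the probe mean were removed (7460), which kept 10987 of 15198 probes. Muscles were compared with lmFit and eBayes of limma 3.58.1 (R 4.3.3, statmod 1.5.0) over all 180 arrays, with Benjamini-Hochberg adjustment over all probes and a call at 0.05 or less. The study also modelled sex, slaughter and hybridization batch and carcass weight, for which the labels give no values. Correlations over pigs used 100000 two-sided permutations in Python 3.11.15 with NumPy 2.4.6, pandas 2.3.3 and SciPy 1.17.1, and figures used matplotlib 3.10.9. Precision is limited by how many arrays had a spot that passed. Pigs within a half-sib family are not fully independent, which the permutations do not take into account.

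The labels give a pig number that pairs the muscles of 90 pigs. The deviations of the muscles of a pig from the muscle means had a median correlation over probes of 0.05, above 0.1 in 37 of 90 pigs. The genes named were the members, every gene of the lists with a named probe, and the 5 named probes most like each member over at least 45 shared pigs in each muscle. Gene names come from the supplementary tables of the study, of which the fold changes and P values were not used. The members and lists were chosen with earlier results of these data known. Other settings were quantile normalization, the 75th percentile in place of the median, normexp with an offset of 50, failed spots kept, no filter on dim probes, values over 3 SD kept, the deposited table, the C-rich index, a block for the pig, random blocks for slide or scan day, values centred on slide means and Spearman rho for the correlations, and for the count of probes called a filter by k-means with 3 clusters. The block of the pig together with the index was added after the data were examined. The fits and the permutation test were tested on simulated data. The sequence of the MYH11 probe is not reported here.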

Additional observations from a re-analysis of the deposited data

How the results depend on the processing

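MYH11, NOTCH3 and PPP1R12B were called higher in SM under all 12 alternatives run for each. DLL4 was called under the 10 without the index, but its log2 fold change was -0.0011 with the C-rich index (adjusted P = 0.992 in limma) and -0.048 with the pig as a replicate block and the index (adjusted P = 0.781). Over the 10 settings without the index the log2 fold changes were -1.88 to -1.19 for MYH11, -0.71 to -0.41 for NOTCH3, -1.57 to -1.09 for DLL4 and -2.61 to -2.01 for PPP1R12B. The values nearest 0 came with normexp background correction for MYH11 and NOTCH3. For DLL4 and PPP1R12B they came with failed spots kept, a setting that still removed values over 3 SD. The pig as a replicate block alone gave -1.77, -0.58, -1.37 and -2.44 in that order and changed no call of a member. Of all probes 9169 were called, against 6027 of the 6903 in the deposited table and 3567 of the 4011 left by k-means, in both of which fewer probes were tested. Without the filter on dim probes the share of calls that were higher in SM was 68.2% against 57.2%, and the median log2 fold change of all probes was -0.19. Of the 6 member pairs 2 were called within each muscle under every setting, except within SM with the index, where 1 was called, and no member was called between the muscles of a pig under any. Without the index, no list named here changed the sign of its median under any setting. Spots near background limit MYH11 and NOTCH3, and lost non-uniform spots limit DLL4 and PPP1R12B. The cause of the index was not tested.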

Other observations

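The 44 LM arrays read with software version 9.5.1.1 and the 46 read with 9.5.3.1 differed in the members by amounts smaller than the muscle difference without the index. For DLL4 this does not hold with the index, where its muscle difference was -0.0011. The mean of DLL4 was 1.22 ± 0.60 (SD, n = 32) with the first and 0.88 ± 0.43 (SD, n = 33) with the second, and that of PPP1R12B was 0.02 ± 0.97 (SD, n = 32) and -0.56 ± 0.60 (SD, n = 35). MYH11 had -2.73 ± 0.55 (SD, n = 43) and -2.54 ± 0.71 (SD, n = 44), and NOTCH3 had -2.56 ± 0.35 (SD, n = 44) and -2.44 ± 0.29 (SD, n = 45). Scan days differ between these versions, and the difference was not tested.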
